A study of Homo sapiens with 6 samples.

Results

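Transcripts of 10 genes that p53 is known to induce under stress were followed in SAS cells, an established human oral squamous carcinoma line. They were chosen by symbol: MDM2, SESN1, SESN2, PLK2, PLK3, BTG2, GDF15, TP53I3, TP53INP1 and ZMAT3. The choice was made with earlier results of these data known. In the platform annotation, 9 of the 10 had a probe set under their symbol, with 29 of the 54675 probe sets on the array, and BTG2, an antiproliferative gene, is not analysed here. All 9 were among the 12935 genes bright enough to test. The 6 arrays formed 4 groups. SAS cells transfected with an siRNA against CYLD (siCYLD, 2 arrays) or with a control siRNA (siCtrl, 2 arrays) received DMSO, and 1 further array of each siRNA came from cells given an ALK5 inhibitor, which blocks the type I receptor for TGF-β. All cells grew for 2 days after transfection and then spent 48 h in serum-free medium with DMSO or inhibitor. CYLD encodes a deubiquitinase that restrains NF-κB signalling. The labels name neither the inhibitor's compound nor its dose, so each inhibitor group rests on 1 array of unnamed treatment strength.

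The transcription factor p53 accumulates when DNA is damaged or when cells are otherwise stressed, and it switches on genes that stop the cell cycle, limit growth signalling, handle oxidants or kill the cell. MDM2 is the ubiquitin ligase that p53 induces and that in turn destroys p53, which closes a feedback loop. Many of these genes also answer to other inputs: SESN2 and GDF15 to amino acid and endoplasmic reticulum stress, and PLK2 and PLK3 to serum and growth factors.

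Titles and source names conflict on 2 arrays, siCYLD replicate 1 and siCtrl replicate 2, whose source names give the opposite siRNA. Arrays were grouped by title. With DMSO, arrays of the same title correlated at 0.988 (siCYLD) and 0.9867 (siCtrl) over the genes tested (Pearson r). Arrays of different title correlated at 0.9636 to 0.9661. CYLD itself read 278 and 230 in siCYLD arrays against 411 and 500 in siCtrl arrays with DMSO (probe set 213295_at, MAS5 signal on a linear scale), a log2 difference of -0.80 with a standard error of 0.18 (adjusted p = 0.0065, limma). The size depended on the probe set: 221903_s_at read 77.2 and 125 in siCYLD against 485 and 550 in siCtrl arrays (-2.21, adjusted p = 2.97e-05 on its own), and 39582_at had -1.24 (adjusted p = 0.000768 on its own). With the inhibitor 213295_at read 176 in siCYLD against 349 in siCtrl cells. Effects of the siRNA on other transcripts cannot be told apart from those of CYLD loss. Of 9 squamous epithelial markers, 6 had a probe set annotated with their symbol alone, and all 6 passed the brightness filter. EPCAM read 20200 to 21900 and CDH1 11700 to 15200, while KRT14 read 62.3 to 148. KRT5 moved with the inhibitor, reading 5600 against 900 and 968 with DMSO in siCYLD cells and 12500 against 1090 and 1250 in siCtrl cells (2.98 across both siRNAs, adjusted p = 5.28e-06). The endothelial marker VWF was also called with the inhibitor, reading 169 against 71.4 and 35.9 in siCYLD cells and 169 against 25 and 70.1 in siCtrl cells (1.54, adjusted p = 0.0165). The epithelial marker DSG3 was called with the knockdown, reading 754 and 820 in siCYLD against 1210 and 1260 in siCtrl arrays with DMSO (-0.64, adjusted p = 0.00224). The part of these markers in the results below was not tested. Of 6 fibroblast markers 3 passed. Of 5 leukocyte markers 3 had a probe set annotated with their symbol alone and 1 passed, with PTPRC at 4.16 to 42.3. Of 3 endothelial markers 2 passed. Summed epithelial signals were 55200 to 56200 in siCYLD and 55100 to 67200 in siCtrl arrays, and fibroblast sums 561 to 670 in siCYLD and 409 to 518 in siCtrl arrays. Leukocyte sums were 124 to 159 in siCYLD and 101 to 143 in siCtrl arrays, and endothelial sums 245 to 384 in siCYLD and 228 to 381 in siCtrl arrays. No defining marker of these types was at 0, but a signal above 0 does not by itself show expression. LYZ at 3.27 to 45.6 and KDR at 1.95 to 25.5, like PTPRC, did not pass the filter. The 3′ to 5′ signal ratio of ACTB, a measure of RNA quality, was 2.26, 2.48 and 2.38 in the siCYLD arrays against 3.41, 3.21 and 3.67 in the siCtrl arrays, the inhibitor array being last in each group. The same ratio of GAPDH overlapped between the siRNAs, at 1.80, 1.91 and 1.97 in siCYLD against 2.14, 1.79 and 1.87 in siCtrl arrays. The part of RNA quality in the siCYLD differences below was not tested. Whether duplicates came from separate cultures is not stated, so the spread behind each p-value may be technical.

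With DMSO, knockdown of CYLD raised PLK3 and lowered PLK2, SESN1 and GDF15, so 1 of the 9 genes rose and 3 fell at an adjusted p below 0.05 (limma, two-sided, Benjamini-Hochberg over all genes tested). Of all genes tested, 9.49% rose and 11.8% fell in that comparison. Although siCYLD and siCtrl arrays did not overlap for any of the 9 genes, this was also so for 60.9% of all genes. The median log2 difference of the 9 was -0.24, beside -0.04 for all genes tested. The lack of overlap was thus common on these arrays, and the called genes moved in both directions.

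The ALK5 inhibitor raised PLK2 and lowered TP53INP1, ZMAT3 and SESN2. Across both siRNAs 1 of the 9 genes rose and 3 fell (2 inhibitor arrays against 4 DMSO arrays, limma), beside 11.2% of all genes that rose and 8.82% that fell. The same 4 genes were called within siCYLD cells (all genes: 12.2% higher, 10.2% lower). Within siCtrl cells TP53I3 joined them, which gave 1 higher and 4 lower (all genes: 5.02% higher, 4.34% lower). Both tests within 1 siRNA assume that the lone inhibitor array varies as the duplicates do. The median difference of the 9 was -0.19 across both siRNAs, beside 0.01 for all genes.

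**Figure D1:**
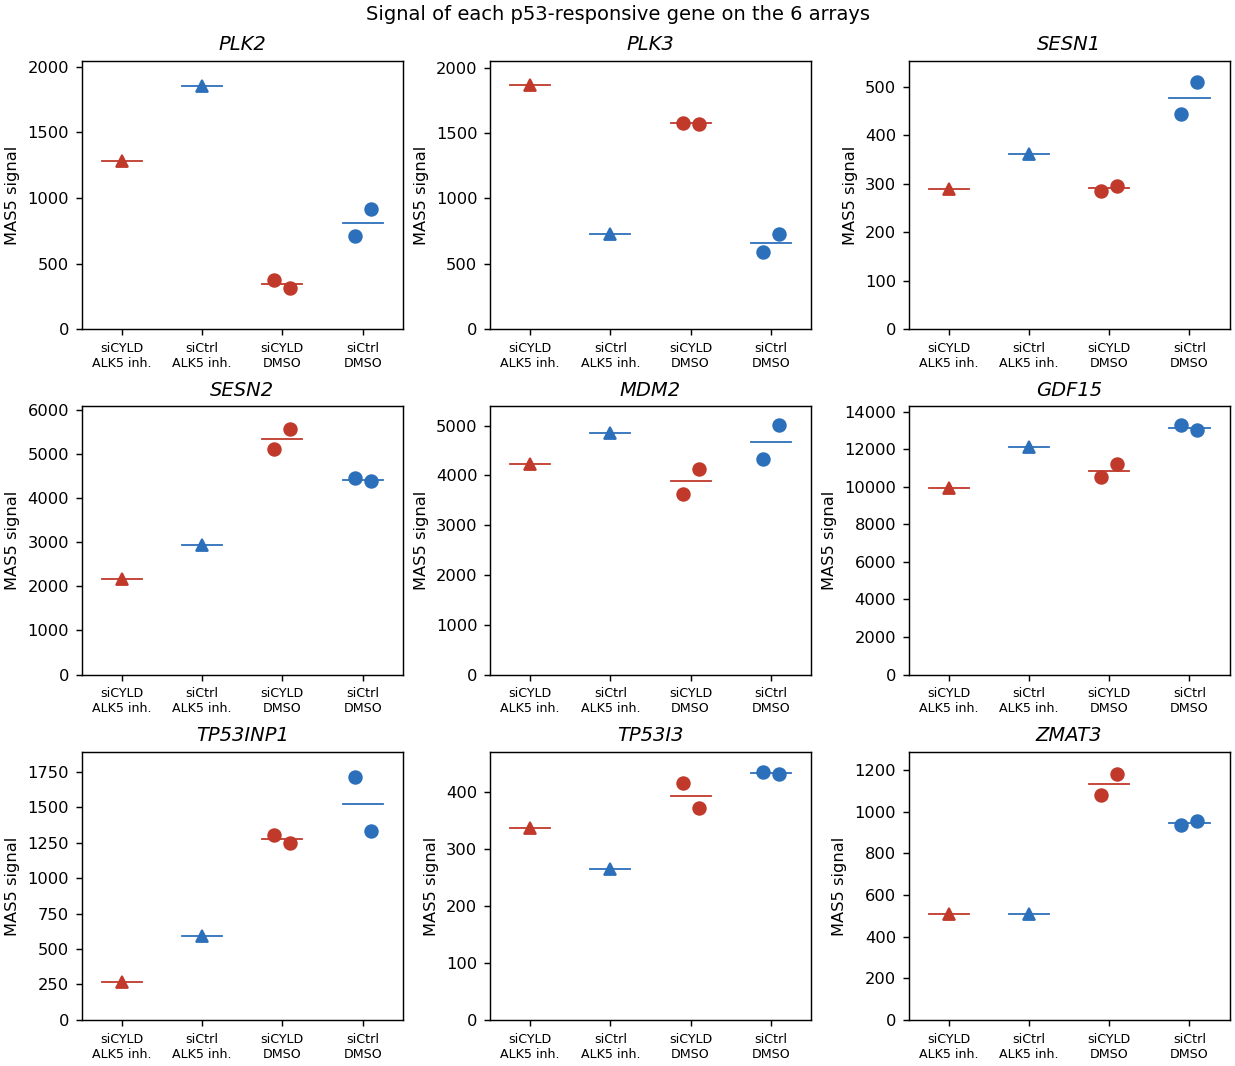
MAS5 signal (linear scale from 0) of the probe set representing each of the 9 genes on the 6 arrays; triangles are inhibitor arrays, circles DMSO arrays, and short lines the group means, with siCYLD in red and siCtrl in blue. PLK2 is lowest in siCYLD with DMSO (374 and 316) and highest in siCtrl with inhibitor (1850). PLK3 separates the siRNAs, and TP53INP1, ZMAT3 and SESN2 separate inhibitor from DMSO. The share of all genes that separate the 6 arrays in these ways was not counted.

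PLK2 and PLK3 encode polo-like kinases, PLK2 acting in centriole duplication and PLK3 in responses to stress and DNA damage. These related genes moved in opposite directions with the knockdown. PLK2 read 374 and 316 in siCYLD arrays against 706 and 917 in siCtrl arrays with DMSO. It fell by 1.19 ± 0.15 on the log2 scale (± standard error, 2 arrays against 2, adjusted p = 9.78e-05, limma). PLK3 read 1580 and 1570 in siCYLD arrays against 593 and 728 in siCtrl arrays, and rose by 1.24 ± 0.13 (adjusted p = 1.69e-05). The groups did not overlap for either gene, which was also so for 60.9% of all genes tested. For PLK3 the duplicates lay close together beside the gap between groups, while the siCtrl duplicates of PLK2 differed more. In the inhibitor pair, which has no replicate, PLK2 read 1280 in siCYLD against 1850 in siCtrl cells (log2 difference -0.52) and PLK3 read 1870 against 728 (1.34).

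The inhibitor acted on 1 of these kinases in the test. PLK2 read 1280 with inhibitor against 374 and 316 with DMSO in siCYLD cells, and 1850 against 706 and 917 in siCtrl cells. It rose by 1.51 ± 0.17 across both siRNAs (adjusted p = 0.000291, limma), by 1.85 within siCYLD cells and by 1.18 within siCtrl cells. PLK3 had a difference of 0.19 ± 0.12 across both siRNAs (adjusted p = 0.277). The PLK3 probe sets disagreed here: the dimmer 215462_at read 173 with inhibitor against 447 and 321 with DMSO in siCYLD cells, and 159 against 284 and 189 in siCtrl cells, and tested on its own it fell within siCYLD cells (-1.06, adjusted p = 0.0221) and across both siRNAs (adjusted p = 0.0327). That probe set had a knockdown difference of 0.67 with DMSO (adjusted p = 0.064), in the direction of the brighter one. The third PLK3 probe set lay below the brightness filter, and PLK2 had only 1.

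The promoter windows of the 3 genes with the largest knockdown differences are shown to set the opposite changes beside the sequence at each gene's start. Each runs from 250 bases before to 50 after an annotated start (RefSeq, GRCh38.p14), read 5′ to 3′ on the gene's strand. Capitals mark matches on either strand to the p53 half-site or to CAGAC, a short SMAD-binding sequence.
PLK2, chr5:58460037-58460336, minus strand: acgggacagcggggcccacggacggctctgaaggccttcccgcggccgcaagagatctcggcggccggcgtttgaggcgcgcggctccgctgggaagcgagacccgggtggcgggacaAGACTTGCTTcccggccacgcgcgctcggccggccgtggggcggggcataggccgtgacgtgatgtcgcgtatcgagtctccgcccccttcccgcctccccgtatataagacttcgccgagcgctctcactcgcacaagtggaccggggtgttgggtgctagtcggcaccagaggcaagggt
SESN1, chr6:109008939-109009238, minus strand: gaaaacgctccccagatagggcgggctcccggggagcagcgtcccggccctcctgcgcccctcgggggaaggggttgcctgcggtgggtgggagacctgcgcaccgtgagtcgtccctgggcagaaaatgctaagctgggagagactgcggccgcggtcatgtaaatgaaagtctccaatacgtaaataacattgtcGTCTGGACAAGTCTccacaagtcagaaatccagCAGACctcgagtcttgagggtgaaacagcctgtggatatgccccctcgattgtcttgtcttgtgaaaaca
PLK3, chr1:44800127-44800426, plus strand: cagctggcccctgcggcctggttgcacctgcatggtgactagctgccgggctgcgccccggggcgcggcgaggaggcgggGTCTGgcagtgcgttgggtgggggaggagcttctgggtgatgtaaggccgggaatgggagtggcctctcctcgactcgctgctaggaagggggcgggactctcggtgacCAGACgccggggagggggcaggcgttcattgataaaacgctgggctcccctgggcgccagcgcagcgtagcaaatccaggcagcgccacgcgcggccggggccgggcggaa
The PLK2 window held 1 p53 half-site, beginning at position -132 from the start. For SESN1, the window shown is the 1 of its 3 that held a half-site, at -49, whose first base is also the last of a CAGAC match. The PLK3 window held no half-site and 2 CAGAC matches. Half-sites occurred in 6.64% of all 35097 windows and CAGAC in 45.2%. Of the 10 genes, 9 had at least 1 window, 15 windows in all, and only the PLK2 window and the 1 SESN1 window held a half-site. The AP-1 sequence TGANTCA stood in 2 overlapping MDM2 windows (7.71% of all windows), and the CArG box bound by SRF and the cyclic AMP element TGACGTCA in none of the 15 (1.29% and 1.85% of all windows). A match is a string of letters and says nothing of binding in these cells.

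**Figure D2:**
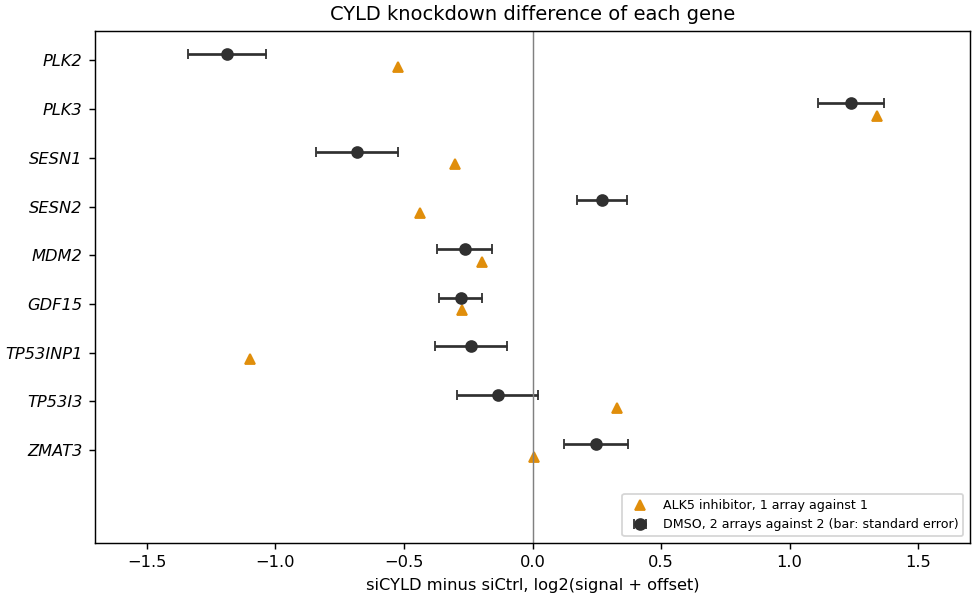
Difference between siCYLD and siCtrl in log2(signal + offset) for each gene, with DMSO (circles, bars are standard errors of the limma fit) and in the inhibitor pair (triangles, 1 array against 1, no error). PLK3 lies at 1.24 and 1.34 and PLK2 at -1.19 and -0.52, while SESN2 and TP53I3 have opposite signs with DMSO and with inhibitor.

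The sestrins restrain the growth kinase complex mTORC1 when amino acids are short. SESN1 read 285 and 295 in siCYLD arrays against 443 and 510 in siCtrl arrays with DMSO, and fell by 0.68 ± 0.16 (adjusted p = 0.00839, limma). Without siCtrl replicate 2 the difference was -0.58 with an adjusted p of 0.0655. In the inhibitor pair SESN1 read 289 in siCYLD against 360 in siCtrl cells (-0.30). Across both siRNAs its inhibitor difference was -0.19 ± 0.15 (adjusted p = 0.398).

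SESN2 read 5100 and 5560 in siCYLD arrays against 4450 and 4380 in siCtrl arrays with DMSO, a difference of 0.27 ± 0.10 that missed the threshold (adjusted p = 0.0631, limma). Its other probe set, 223196_s_at, read 4500 and 4430 against 3240 and 3200 and rose by 0.47 when tested on its own (adjusted p = 0.00526). With the inhibitor the order of the siRNAs was the reverse, 2160 in siCYLD against 2930 in siCtrl cells, and 1970 against 2160 on the other probe set. The inhibitor lowered SESN2: 2160 stood against 5100 and 5560 with DMSO in siCYLD cells, and 2930 against 4450 and 4380 in siCtrl cells. The difference was -0.94 ± 0.14 across both siRNAs (adjusted p = 0.00136), -1.30 within siCYLD cells and -0.59 within siCtrl cells. The difference between these effects, the interaction of knockdown and inhibitor, was -0.71 ± 0.17 with an adjusted p of 0.0555.

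TP53INP1, a stress protein that binds p53 and takes part in autophagy, had the largest inhibitor difference of the 9 genes. It read 267 with inhibitor against 1300 and 1250 with DMSO in siCYLD cells, and 590 against 1710 and 1330 in siCtrl cells (probe set 225912_at, the only 1 of its 3 above the filter). Both inhibitor arrays lay below all 4 DMSO arrays, but the share of all genes that separate in this way was not counted. The difference was -1.76 ± 0.18 across both siRNAs (adjusted p = 0.000185, limma), -2.19 within siCYLD and -1.33 within siCtrl cells, and the interaction was -0.86 ± 0.24 (adjusted p = 0.114). With DMSO the knockdown difference was -0.24 ± 0.14 (adjusted p = 0.247), and in the inhibitor pair -1.10. Its relative TP53INP2, an autophagy gene, also fell with the inhibitor, reading 602 against 1880 and 1820 in siCYLD cells and 472 against 1480 and 1440 in siCtrl cells (-1.597 across both siRNAs, adjusted p = 1.38e-05).

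ZMAT3 encodes a zinc finger protein that binds RNA. It read 510 with inhibitor against 1080 and 1180 with DMSO in siCYLD cells, and 509 against 937 and 956 in siCtrl cells. It differed by -0.996 ± 0.118 across both siRNAs (adjusted p = 0.000382, limma). Its 4 probe sets above the filter all fell across both siRNAs when tested singly, with adjusted p-values of 0.00052 to 0.0182. The knockdown difference with DMSO was 0.25 ± 0.12 (adjusted p = 0.179), and 0.25 to 0.45 over the 4 probe sets, none of which passed on its own.

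TP53I3, which encodes a quinone oxidoreductase of the oxidant response, read 337 with inhibitor against 416 and 371 with DMSO in siCYLD cells, and 265 against 435 and 432 in siCtrl cells. The difference of -0.68 ± 0.19 within siCtrl cells was called (adjusted p = 0.0423, limma), while the differences of -0.21 within siCYLD cells (adjusted p = 0.469) and -0.45 across both siRNAs (adjusted p = 0.0634) were not. Without the siCYLD inhibitor array the difference across siRNAs is that within siCtrl cells (-0.68, adjusted p = 0.0412). The interaction, 0.47 ± 0.27, was not called either (adjusted p = 0.484). Within siCtrl cells the call was lost without siCtrl replicate 1 (-0.67, adjusted p = 0.104) and without siCtrl replicate 2 (-0.68, adjusted p = 0.0683), and likewise with no brightness filter (adjusted p = 0.135) and without the intensity trend (adjusted p = 0.114).

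**Figure D3:**
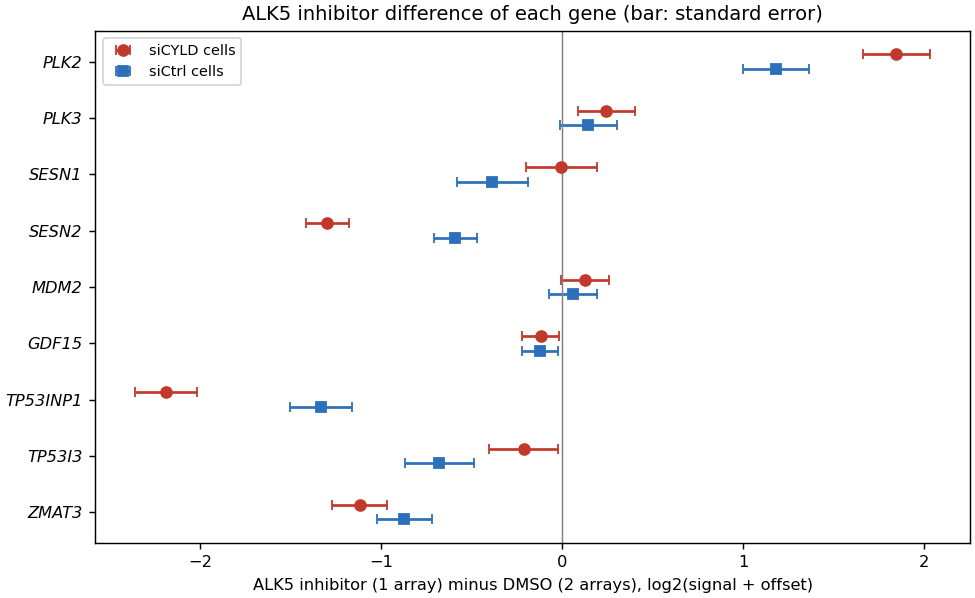
Inhibitor minus DMSO difference in log2(signal + offset) of each gene within siCYLD cells (red circles) and siCtrl cells (blue squares), 1 inhibitor array against 2 DMSO arrays each, with standard errors of the limma fit. PLK2 lies at 1.85 and 1.18, TP53INP1 at -2.19 and -1.33, SESN2 at -1.30 and -0.59 and ZMAT3 at -1.12 and -0.87, siCYLD cells being given before siCtrl cells.

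MDM2 read 3630 and 4130 in siCYLD arrays against 4320 and 5010 in siCtrl arrays with DMSO on its brightest probe set, 229711_s_at. The difference of -0.26 ± 0.11 did not pass (adjusted p = 0.0993, limma). With 1 DMSO array left out it ranged from -0.37 to -0.16, and it passed only without siCtrl replicate 1 (-0.37). With inhibitor the probe set read 4230 in siCYLD and 4850 in siCtrl cells, and the inhibitor difference across both siRNAs was 0.09 ± 0.10 (adjusted p = 0.556). MDM2 had 10 probe sets, of which 8 passed the filter, and they did not move together. The probe set 225160_x_at read 307 and 311 in siCYLD arrays against 417 and 415 in siCtrl arrays (-0.41), while 238733_at read 314 and 323 against 238 and 176 (0.60). Neither passed on its own (adjusted p of 0.0893 and 0.0595). Within siCYLD cells 2 MDM2 probe sets fell with the inhibitor when tested singly, 211832_s_at (-1.85, adjusted p = 0.0222) and 238733_at (-0.90, adjusted p = 0.0258). The MDM2 values therefore depend on the probe set read.

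GDF15, a secreted stress cytokine of the TGF-β superfamily, read 10500 and 11200 in siCYLD arrays against 13300 and 13000 in siCtrl arrays with DMSO (221577_x_at). It fell by 0.28 ± 0.08 (adjusted p = 0.029, limma). In the inhibitor pair it read 9960 in siCYLD against 12100 in siCtrl cells (-0.27). The call is a narrow one, and it was lost without siCYLD replicate 1 (-0.23, adjusted p = 0.19), without siCYLD replicate 2 (-0.32, adjusted p = 0.0558) and without siCtrl replicate 1 (-0.26, adjusted p = 0.0705). It was also lost with no brightness filter (adjusted p = 0.0907) and without the intensity trend in the fit (adjusted p = 0.175). The inhibitor difference across both siRNAs was -0.12 ± 0.08 (adjusted p = 0.305). The much dimmer probe set 229868_s_at read 34 and 56.5 in siCYLD against 70 and 79.2 in siCtrl arrays with DMSO. It was not called for the knockdown on its own (-0.59, adjusted p = 0.354, limma). Its inhibitor differences were -0.565 within siCYLD and 0.29 within siCtrl cells.

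**Figure D4:**
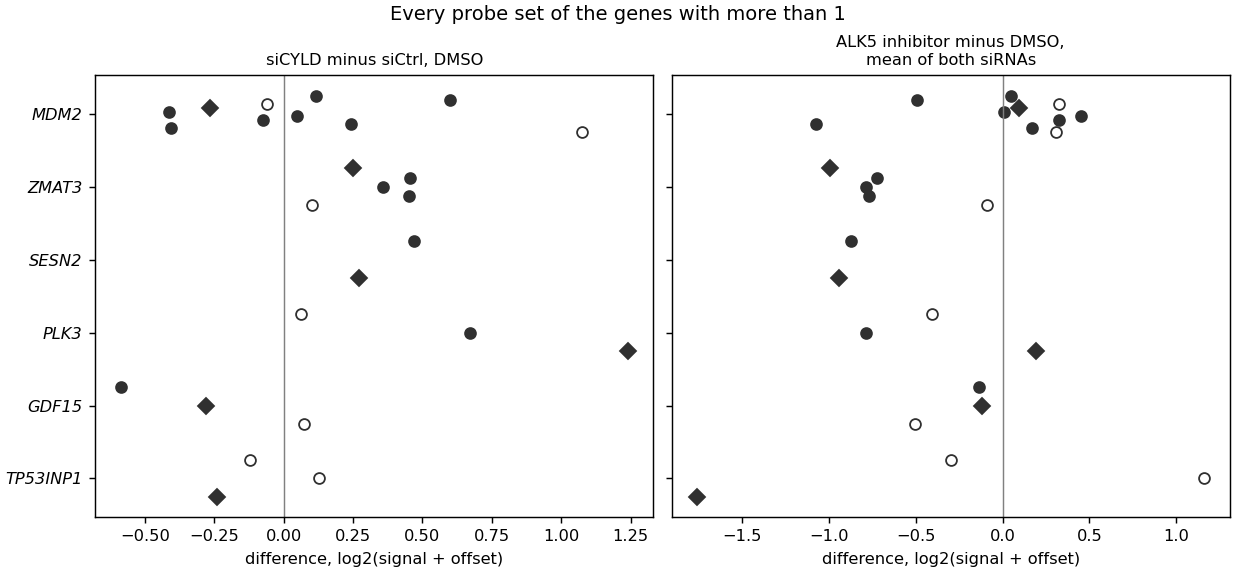
Differences in log2(signal + offset) of every probe set of the 6 genes with more than 1, for the knockdown with DMSO (left) and the inhibitor averaged over both siRNAs (right). Diamonds represent the gene, filled circles other probe sets above the brightness filter and open circles those below it; the 8 filled MDM2 symbols straddle 0 on both sides, while the 4 of ZMAT3 lie on 1 side in each panel.

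Whether the inhibitor acted differently in siCYLD and siCtrl cells was tested by the interaction. None of the 9 genes was called (limma), and 3 had an unadjusted p under 0.05: SESN2, TP53INP1 and PLK2. Of all genes tested, 13.7% had an unadjusted p under 0.05, 0.982% had an interaction called as higher and 0.688% one called as lower. For PLK2 the interaction was 0.67 ± 0.26 (adjusted p = 0.265). SESN2 passed without siCYLD replicate 1 (-0.77, adjusted p = 0.0183), without siCtrl replicate 1 (-0.72, adjusted p = 0.0411) and without siCtrl replicate 2 (-0.70, adjusted p = 0.0478), and TP53INP1 without siCYLD replicate 2 (-0.88, adjusted p = 0.0422) and without siCtrl replicate 1 (-1.04, adjusted p = 0.0263). In the inhibitor pair PLK3 was at least 2-fold higher in siCYLD and TP53INP1 at least 2-fold lower, beside 3.91% of all genes at least 2-fold higher and 2.81% at least 2-fold lower. These pair values have no replicate check.

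Leaving out both arrays with conflicting labels left siCYLD replicate 2, siCtrl replicate 1 and the inhibitor pair. Between those DMSO arrays PLK3 differed by 1.38, PLK2 by -1.12, SESN1 by -0.56 and GDF15 by -0.25. Each lay near the value from all 4 DMSO arrays, of which this pair is a part. Among the genes not called, MDM2 had -0.06 against -0.26 from all 4, and TP53INP1 -0.45 against -0.24. SESN2 had 0.32 against 0.27, ZMAT3 0.32 against 0.25 and TP53I3 -0.22 against -0.14. An additive fit of siRNA and inhibitor on the 4 arrays kept PLK3 (1.36, adjusted p = 5.42e-05, limma) and PLK2 (-0.82, adjusted p = 0.0103), did not call SESN1 (-0.43, adjusted p = 0.26) or GDF15 (-0.26, adjusted p = 0.339), and called TP53INP1 (-0.77, adjusted p = 0.0176). That fit averages in the inhibitor pair. For the inhibitor it called the same 4 genes, PLK2 at 1.67, TP53INP1 at -1.84, ZMAT3 at -1.02 and SESN2 at -0.98.

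Of 46 other genes that p53 induces, 42 were tested, and with the knockdown 6 rose and 5 fell, beside 9.49% and 11.8% of all genes, which is near that background. Their median was -0.04, as for all genes. The largest rise was that of LIF, a cytokine gene (3600 and 3780 in siCYLD against 1320 and 1170 in siCtrl arrays, 1.56 ± 0.11, adjusted p = 5.72e-07, limma). The autophagy gene DRAM1 rose by 0.96, the death receptor gene TNFRSF10A by 0.65 and CDKN1A, which encodes the cyclin-dependent kinase inhibitor that carries much of the p53 arrest, by 0.62. CDKN1A read 8960 and 9810 in siCYLD against 5930 and 6300 in siCtrl arrays. PPM1D, a phosphatase gene of p53 feedback, fell by 0.84, and APAF1, the apoptosome gene, fell by 0.82. MDM4, the partner of MDM2 in restraining p53, fell by 0.26 (adjusted p = 0.046).

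With the inhibitor 6 of these 42 rose and 7 fell across both siRNAs, beside 11.2% and 8.82% of all genes, with a median of 0.01. CDKN1A fell by 1.20 ± 0.17 (adjusted p = 0.000936, limma), to 2930 with inhibitor against 8960 and 9810 with DMSO in siCYLD cells and to 3680 against 5930 and 6300 in siCtrl cells. Its interaction was -0.94 ± 0.16 (adjusted p = 0.00949), so its fall was larger in siCYLD cells. Like SESN2, it was higher in siCYLD than in siCtrl arrays with DMSO and lower in siCYLD with inhibitor (2930 against 3680). SERTAD1, a cell cycle regulator gene, fell by 1.34, and the differences were -0.675 for RRM2B, a ribonucleotide reductase subunit gene, -0.64 for CYFIP2 and -0.598 for RPS27L. TRIM22, an interferon-inducible gene, rose by 1.23, reading 238 against 105 and 119 in siCYLD cells and 358 against 115 and 122 in siCtrl cells.

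**Figure D5:**
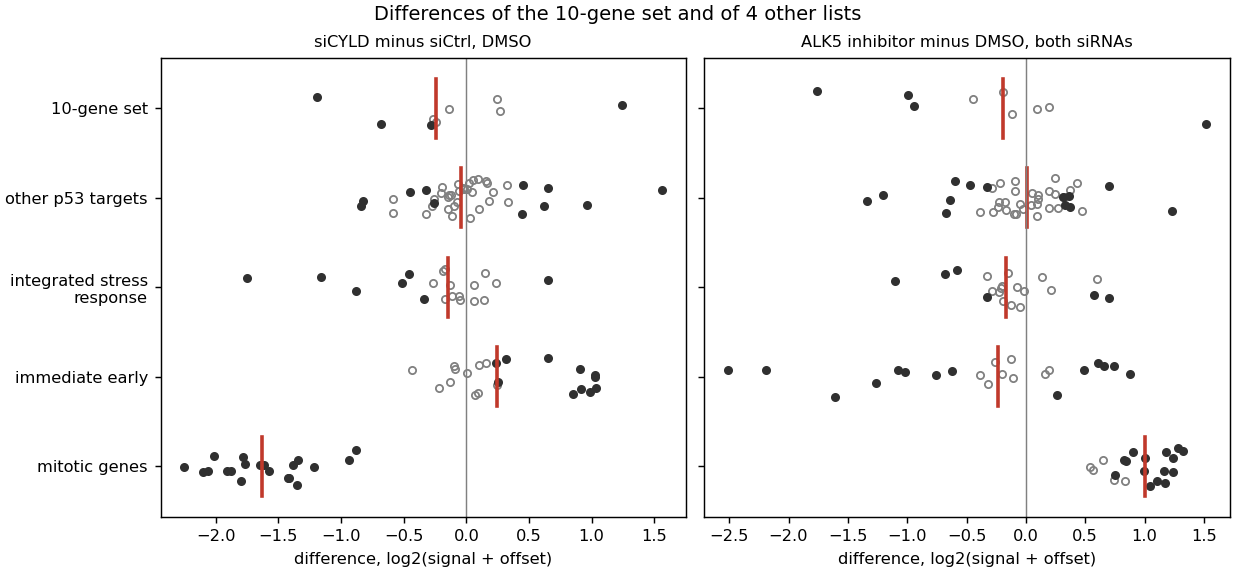
Differences in log2(signal + offset) of the genes tested in the 10-gene set and in 4 other lists, for the knockdown with DMSO (left) and the inhibitor across both siRNAs (right). Filled points passed an adjusted p of 0.05 (limma), open ones did not, and red bars are medians; the medians of the 10-gene set are -0.24 and -0.19, and those of the mitotic genes -1.629 and 1.001.

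Genes of related programmes moved with these comparisons. Of 20 mitotic genes all 20 fell with the knockdown (median -1.63), beside 11.8% of all genes. Across both siRNAs 15 rose with the inhibitor (median 1.001), beside 11.2% of all genes. The inhibitor median was 1.721 within siCYLD and 0.336 within siCtrl cells. This list was chosen with earlier results of these data known. Among relatives of the 2 polo-like kinases above, PLK1 read 133 and 134 in siCYLD against 262 and 258 in siCtrl arrays (-0.88, adjusted p = 0.005, limma) and PLK4, the centriole duplication kinase gene, read 95.4 and 69.1 against 397 and 333 (-1.96, adjusted p = 1.82e-05). With the inhibitor across both siRNAs PLK4 rose by 1.15 (adjusted p = 0.011, limma) and PLK1 had 0.65 (adjusted p = 0.0602). Both differences were larger within siCYLD cells (1.755 for PLK4, 1.128 for PLK1) than within siCtrl cells (0.545 and 0.163). Neither interaction, 1.21 for PLK4 and 0.965 for PLK1, was called (limma). PLK2 had 1.85 within siCYLD and 1.18 within siCtrl cells. The part of the cell cycle in the PLK2 differences was not tested. BTG3, an antiproliferative relative of BTG2, had -0.09 with the knockdown (adjusted p = 0.678, limma). It rose by 0.58 with the inhibitor across both siRNAs, with differences of 0.897 within siCYLD and 0.262 within siCtrl cells. The BTG3 interaction, 0.634, was not called. BTG1 had -0.10 with the knockdown and 0.10 with the inhibitor, neither called. SESN3 did not pass the brightness filter.

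Of 22 immediate early genes, which growth factors and stress induce within minutes, 11 rose and 0 fell with the knockdown, beside 9.49% and 11.8% of all genes (limma). At unadjusted p under 0.05 the knockdown changed 13 of them, beside 34.2% of all genes. With the inhibitor 6 rose and 8 fell, beside 11.2% and 8.82% of all genes. KLF6 rose by 1.03 with the knockdown, KLF10 by 1.03, IER3 by 1.03, FOSL1 by 0.99, JUNB by 0.91 and DUSP1 by 0.85. With the inhibitor the differences were -2.51 for FOS, -2.19 for EGR1, -1.61 for CCN2, -1.26 for DUSP1, -1.08 for JUNB and -1.02 for KLF10. Of 20 genes of the integrated stress response, the programme that also drives SESN2, 1 rose and 6 fell with the knockdown and 2 rose and 4 fell with the inhibitor, to be read against the same shares of all genes. DDIT3, its proapoptotic transcription factor gene, read 1930 with inhibitor against 4260 and 3960 in siCYLD cells and 2680 against 5750 and 5980 in siCtrl cells, a difference of -1.105 (adjusted p = 4.6e-05). The differences were -0.58 for ASNS, -0.68 for CHAC1 and -0.33 for HSPA5, while the serine synthesis gene PHGDH rose by 0.58 and CTH by 0.70. With the knockdown the differences were -1.16 for PHGDH, -1.75 for NUPR1, -0.885 for CTH, -0.51 for DDIT3 and -0.46 for the cystine transporter gene SLC7A11, while ATF3 rose by 0.65.

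Over the 6 arrays, the genes whose log2 values followed PLK3 most closely among 12934 others were SELENOI (Pearson r = 0.9962), LETM1 (0.9958) and MMD (0.9953), and those closest to PLK2 were RHOBTB2 (0.997), the replication helicase gene MCM5 (0.9968) and the sister chromatid cohesion gene CDCA5 (0.9965). With 6 arrays in 4 groups such values are common: 192 genes exceeded 0.95 with PLK3 and 292 with PLK2.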

How the data were processed

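For each of the 6 arrays, biotinylated cRNA was prepared from 2 µg total RNA of SAS cells and hybridised to an Affymetrix array, per the labels' protocols. The deposited intensity values, 1 linear signal per probe set and array, come from MAS5, as the submitters' processing notes state, version not given in the sources used here. Their mean after trimming 2% at each end was 500.1 on every array. Precision is limited by how few arrays there were. An offset of 16.06, the 20th percentile of the signals, was added before log2, and arrays were not rescaled. Probe sets with 1 symbol in the platform annotation (41091) were kept if their highest group mean exceeded the median of all log2 values (signal 79.3), which left 24537, and the brightest represented its gene (12935 genes). Differences on this scale understate changes of dim genes.

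Models were fitted with limma 3.58.1 (R 4.3.3, intensity trend), tested on simulated data. Knockdown, inhibitor within each siRNA and interaction came from 4 group means over 6 arrays (2 residual and 10.9 prior degrees of freedom), and the inhibitor across both siRNAs from an additive model (3 and 7.98). Genes were called at an adjusted p below 0.05. Alternatives were other offsets, filters, scalings, probe set rules, moderation, groupings, left-out arrays and a replicate block. Single probe sets were tested as an alternative chosen after the data were seen. Named genes were the 10 members, CYLD, listed relatives, and by smallest adjusted p up to 6 called genes of 3 lists for the knockdown and for the inhibitor across both siRNAs, and the 3 genes most correlated with each of the 2 members of smallest knockdown p. The members and lists were chosen with earlier results of these data known. Figures used matplotlib 3.10.9. Promoter sequences came from RefSeq (GRCh38.p14). A further gene of that rule is not reported here.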

Additional observations from a re-analysis of the deposited data

How the results depend on the processing

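Of the calls on the 9 genes, PLK2 and PLK3 for the knockdown held under every alternative run except grouping by source name. So did PLK2, TP53INP1, ZMAT3 and SESN2 for the inhibitor across both siRNAs. SESN2, however, was not tested without _x_at and _s_at probe sets, since both of its own are of that kind. Grouping by source name puts 1 array titled siCtrl and 1 titled siCYLD in each DMSO group, so a difference between titles cancels. It called 0 of the 9 genes in all 5 comparisons (limma), with 0, 5, 3, 5 and 0 at unadjusted p under 0.05 for the knockdown, the inhibitor across both siRNAs, in siCYLD cells, in siCtrl cells and the interaction. Of all genes it called 0, 27, 0, 0 and 0 (104, 2124, 1420, 1206 and 524 at unadjusted p under 0.05). Under it the knockdown differences of GDF15 (0.03), MDM2 (0.20), PLK2 (0.07) and SESN1 (0.12) changed sign, as did MDM2 within siCYLD cells (-0.10), GDF15 (0.03), PLK3 (-0.41) and SESN1 (0.02) within siCtrl cells, and the interactions of MDM2 (-0.40), PLK2 (-0.59) and SESN1 (-0.42).

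For all genes, the knockdown called 2757, and 1052 once the 2 conflictingly labelled arrays were dropped and 1219 without the intensity trend. The inhibitor across both siRNAs called 2586, 1325 without both such arrays, 1087 without the trend and 1232 to 2888 with 1 array left out. Within siCYLD cells 2900 were called, 1819 with no filter and 1055 without the trend. Within siCtrl cells there were 1211, 478 with no filter and 35 without the trend, where 0 of the 9 genes were called (5 at unadjusted p under 0.05). The interaction called 216, then 95 with the mean of probe sets, 33 with no filter, 0 without the trend (1480 at unadjusted p under 0.05), 134 without _x_at and _s_at probe sets and 294 to 455 with 1 array left out. Without those probe sets only 5 of the 9 genes were tested, and 2 were called for the knockdown and 3 for the inhibitor within siCtrl cells. The filter at the upper quartile called 1 gene of the 9 for the interaction, and leaving out 1 array called 1 to 2. With the replicate block on the 4 DMSO arrays 3693 genes and 6 of the 9 were called for the knockdown, MDM2 (adjusted p = 0.0302) and SESN2 (adjusted p = 0.0221) being added. The deviations of same-numbered arrays correlated at 0.0447 across genes, and nothing in the labels says that a number marks a shared culture. 

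Sign changes of differences that were not called came with the mean of probe sets for MDM2 (-0.06 across both siRNAs, -0.11 in siCYLD, -0.01 in siCtrl cells, -0.10 interaction), PLK3 (-0.30, -0.41, -0.18 and -0.23) and GDF15 (0.08 in siCtrl cells). Without _x_at and _s_at probe sets MDM2 had 0.05 for the knockdown and -0.22 for the interaction. With 1 array left out, MDM2 ranged from -0.05 to 0.17 in siCtrl cells and from -0.04 to 0.17 for the interaction, and PLK3 from -0.04 to 0.24 for the interaction. For the knockdown, SESN2 had -0.06 in the additive fit lacking the 2 conflictingly labelled arrays, and TP53I3 had 0.02 in the additive fit of 6 arrays and 0.05 without both. The causes were not tested.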
